A study of Macaca mulatta with 38 samples.

Results

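The comparison set cultured neural stem cells of rhesus macaque (Macaca mulatta) fetal cortex on day 5 in vitro against the same culture series on day 1, both with FGF2 (fibroblast growth factor 2). It drew on 8 of the 38 poly(A) RNA-seq libraries, chosen by their labelled day: 4 of day 5 and 4 of day 1, 1 library per culture series and day. The 4 series were E77 Frontal, E77 Occipital, E42 Anterior and E42 Posterior, named by the embryonic day of the fetus and the cortical region. All cells were wild type (WT), isolated with papain and DNase I, plated on PLO/fibronectin and kept in N2 medium at 5% O2 with FGF2 given every day. Both days thus share the growth factor, the medium and the dissociation method. The time since dissociation and plating differs between the days, and its effect cannot be told apart from that of time in the stem phase. The papain step was longer for E77 than for E42 tissue. Day 3 libraries of the same series served as an intermediate time. RNA came from 2 wells per condition, and the labels do not say that series came from separate animals. P-values therefore measure the spread of the change between 4 series. Age cannot be told apart from the fetus, its dissection or the run of the cultures. Values of the 4 series are given throughout in the order E77 Frontal, E77 Occipital, E42 Anterior and E42 Posterior.

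FGF2 binds FGF receptor tyrosine kinases, which signal through the switch protein RAS and the kinases RAF, MEK and ERK. The pathway switches on transcription factors of the PEA3 group (ETV1, ETV4, ETV5) and its own brakes, the Sprouty and SPRED proteins and the phosphatases of ERK. In cortical cultures FGF2 keeps radial glia, the stem cells of the developing cortex, dividing, and its withdrawal is used to start differentiation. The comparison therefore asks what changed in the stem phase before that withdrawal.

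Between 24107755 and 36801810 reads were counted per day 5 library, and between 23073455 and 35498566 per day 1 library. Levels are given in CPM, the reads of a gene scaled to a common library total with TMM factors, and are not divided by gene length. Radial glia genes were abundant on both days: VIM, the intermediate filament gene vimentin, had 4831, 2499, 3106 and 2056 CPM on day 5, against 5298, 2203, 4546 and 3512 CPM on day 1. The 15 radial glia genes summed to 11349 to 20066 CPM on day 5, against 13704 to 21323 CPM on day 1. E42 Anterior stood apart by its genes of mesenchymal cells: the type I collagen gene COL1A1 had 16200.2 CPM there on day 5 and 7962 CPM on day 1, against at most 89.8 CPM in the other 3 series. Summed over the 11 fibroblast and matrix genes, that series had 46539 CPM on day 5 and 23003 CPM on day 1. All 6 blood cell genes were too low to test, with at most 1 count in a library, as were 7 of 8 microglial genes, with at most 12 counts, reached by the chemokine receptor gene CX3CR1. In bulk RNA, fewer cells of a type and less RNA per cell cannot be told apart.

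Of 18242 genes tested, 483 were higher on day 5 (2.65%) and 382 lower (2.09%), together 865 (4.74%), at an adjusted p under 0.05 (edgeR quasi-likelihood test with the series as a block and Benjamini-Hochberg adjustment). The median log2 fold change over all tested genes was -0.00082. Among the called genes, 178 of the 483 higher and 102 of the 382 lower changed by at least 1 on the log2 scale. All 483 higher and 380 of the 382 lower genes moved in the same direction in all 4 series, against 3038 higher (16.7%) and 3181 lower (17.4%) of all tested genes. The day 5 and day 1 libraries did not overlap for 167 of the higher and 140 of the lower calls, against 460 (2.52%) and 569 (3.12%) of all tested genes. The test with the series as a block favours genes that change alike in all 4 series. The shared direction of the calls thus follows largely from the test and is no separate support for them, and the lack of overlap follows from it in part. The calls were marginal, with a smallest adjusted p of 0.0203. Without E42 Anterior there were 666 higher and 433 lower genes of 18080 tested (3.68% and 2.39%), of which 369 and 248 were also called with all 4 series. Without E42 Posterior the counts were 0 and 0, without E77 Frontal 1 and 3, and without E77 Occipital 12 and 11. These fits had 2 residual degrees of freedom, and at an unadjusted p under 0.05 they gave 1567 higher and 1276 lower genes without E42 Posterior, 1946 and 1636 without E77 Frontal, and 1953 and 1942 without E77 Occipital. Calls given below without E42 Anterior are thus those of the omission that left the most calls. Without E42 Posterior, E77 Frontal and E77 Occipital in turn, the log2 fold change of AQP4 was 3.004, 2.60 and 2.51 (adjusted p = 0.0504, 0.0612 and 0.0573), and that of CALB2 was 2.96, 2.63 and 2.55 (adjusted p = 0.104, 0.0794 and 0.0178).

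**Figure D1:**
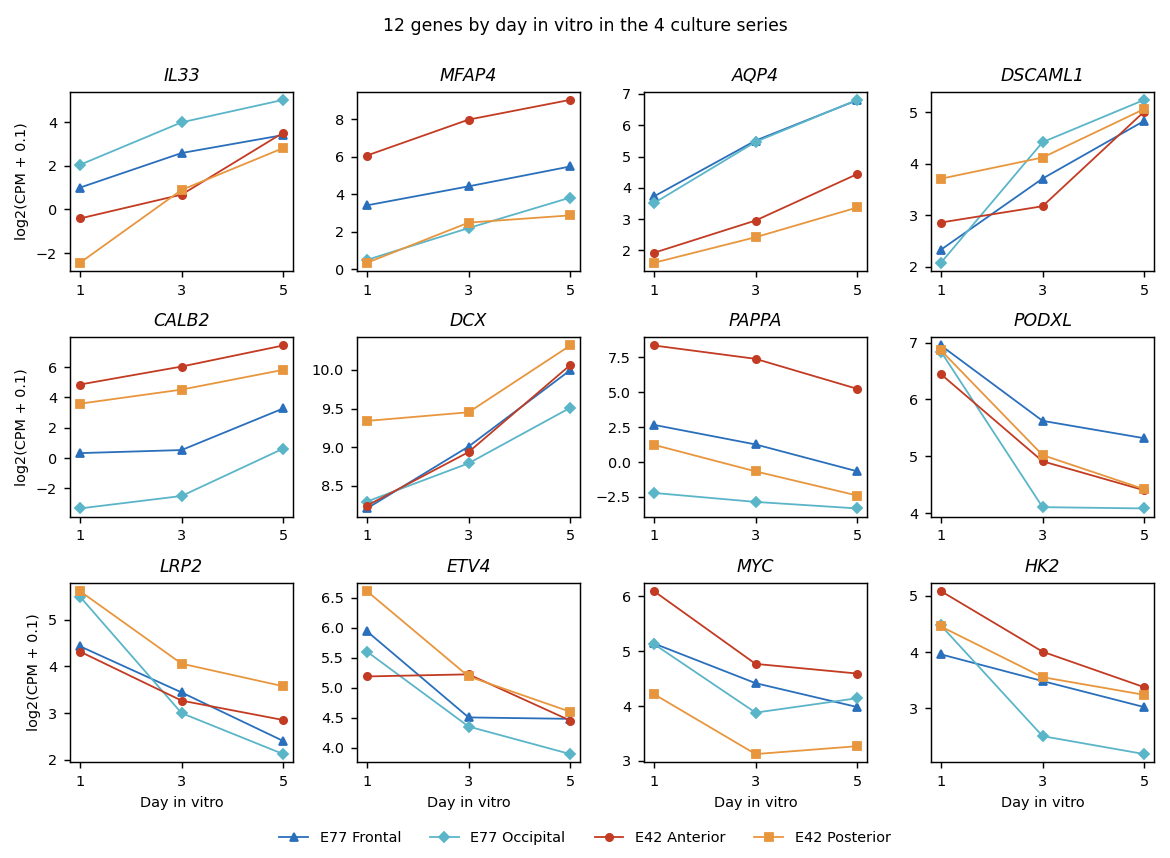
Levels of 12 genes (log2 of CPM plus 0.1) by day in vitro, 1 line per culture series. IL33, AQP4, DSCAML1, CALB2 and DCX are higher on day 5 than on day 1 in all 4 series, MFAP4 likewise, while PAPPA, PODXL, LRP2, ETV4, MYC and HK2 are lower in all 4. MFAP4, CALB2 and PAPPA are highest in E42 Anterior on each day.

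IL33 and AQP4 were among the 10 genes with the largest rises. IL33, which encodes a nuclear cytokine released from damaged cells, had 10.5, 32.3, 11.3 and 6.91 CPM on day 5, against 1.89, 4.01, 0.649 and 0.0833 CPM on day 1 (log2 fold change 3.58 ± 0.53, edgeR adjusted p = 0.0337). Every day 5 library stood above every day 1 library. AQP4, the water channel gene of astrocytes, had 111, 112, 21.6 and 10.3 CPM on day 5, against 13.1, 11.3, 3.70 and 2.94 CPM on day 1 (log2 fold change 2.73 ± 0.26, edgeR adjusted p = 0.0203). Both E77 series stood above both E42 series on each day, so the groups overlapped although all 4 series went up. CALB2, which encodes the calcium-binding protein calretinin of interneurons, had 9.55, 1.44, 171 and 56.2 CPM on day 5, against 1.15, 0, 28.7 and 11.9 CPM on day 1 (log2 fold change 2.68 ± 0.31, edgeR adjusted p = 0.0225). STMN4, a stathmin gene of neuronal microtubules, had 11.96, 13.1, 28.01 and 72.5 CPM on day 5, against 2.55, 0.501, 8.46 and 17.1 CPM on day 1 (log2 fold change 2.44 ± 0.44, edgeR adjusted p = 0.0469). DRAXIN, whose product is a secreted axon guidance protein, had 8.33, 7.35, 9.79 and 18.3 CPM on day 5, against 0.617, 1.04, 2.59 and 7.89 CPM on day 1 (log2 fold change 2.29 ± 0.41, edgeR adjusted p = 0.0404). CALB2 and STMN4 stood higher in both E42 series than in both E77 series on day 5. DSCAML1, a neuronal cell adhesion gene of the immunoglobulin superfamily, was similar across series on day 5: it had 28.4, 37.7, 32.2 and 33.3 CPM on day 5, against 4.94, 4.13, 7.17 and 12.99 CPM on day 1 (log2 fold change 2.29 ± 0.30, edgeR adjusted p = 0.0268), with no overlap. The remaining 4 of the 10 largest rises were ISLR, MFAP4, HLF and ITGB4.

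Of these, ISLR and MFAP4 are genes of mesenchymal and elastic matrix, and both had their highest level in E42 Anterior on each day. ISLR had 0.367, 0.324, 326 and 1.05 CPM on day 5, against 0.0412, 0.270, 28.2 and 0.278 CPM on day 1 (log2 fold change 2.92 ± 0.50, edgeR adjusted p = 0.0440), so that 3 of 4 series were near or under 1 CPM on both days, and it could not be tested without E42 Anterior. MFAP4, a microfibril-associated protein gene, had 44.8, 14.1, 530.2 and 7.24 CPM on day 5, against 10.5, 1.31, 67.3 and 1.17 CPM on day 1 (log2 fold change 2.74 ± 0.21, edgeR adjusted p = 0.0203). Its log2 changes in the 4 series were 2.08, 3.36, 2.98 and 2.57, and without E42 Anterior its log2 fold change was 2.64 (edgeR adjusted p = 0.00678). HLF, a transcription factor gene of the PAR bZIP group, rose by 2.43 ± 0.43 (edgeR adjusted p = 0.0404) and reached 42.7 CPM on day 5 in E42 Anterior and 2.87 to 7.92 CPM in the others. ITGB4, the laminin receptor subunit integrin beta 4, had 92.2, 116, 8.22 and 3.32 CPM on day 5, against 11.8, 19.8, 2.08 and 1.75 CPM on day 1 (log2 fold change 2.22 ± 0.34, edgeR adjusted p = 0.0354), highest in the E77 series. Without E42 Anterior the log2 fold change of IL33 was 3.36 (adjusted p = 0.0668), of STMN4 2.69 (adjusted p = 0.0928), of DRAXIN 2.41 (adjusted p = 0.0643), of DSCAML1 2.32 (adjusted p = 0.0539) and of ITGB4 2.31 (adjusted p = 0.0888), while AQP4, CALB2 and HLF had an adjusted p under 0.05. IL33 and DSCAML1 did not pass without E42 Posterior, E77 Frontal or E77 Occipital either. In that order the edgeR adjusted p was 0.0927, 0.0703 and 0.0916 for IL33. For DSCAML1 it was 0.0797, 0.0815 and 0.0577.

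Of the 10 largest falls, 5 were of genes with more CPM in E42 Anterior on each day than in all other series together. FLT1, a receptor gene for vascular endothelial growth factor, had 0, 0.0720, 6.78 and 0.120 CPM on day 5, against 0.617, 0.0771, 121 and 2.33 CPM on day 1 (log2 fold change -4.07 ± 0.41, edgeR adjusted p = 0.0203). INHBA, which encodes the subunit of activin A, had 0.122, 0, 8.13 and 0.0598 CPM on day 5, against 0.782, 0.193, 104 and 2.25 CPM on day 1 (log2 fold change -3.80 ± 0.31, edgeR adjusted p = 0.0203). For both genes, the E77 series were under 1 CPM on both days and E42 Anterior held most of the level, and neither could be tested without that series. PAPPA, the gene of a protease that frees insulin-like growth factors from a binding protein, had 0.531, 0, 37.6 and 0.0897 CPM on day 5, against 6.22, 0.116, 324 and 2.25 CPM on day 1 (log2 fold change -3.38 ± 0.22, edgeR adjusted p = 0.0203). Without E42 Anterior its log2 fold change was -3.93 (edgeR adjusted p = 0.00773). ITGA1, the collagen receptor subunit integrin alpha 1, had 3.999, 0.396, 137 and 1.62 CPM on day 5, against 8.89, 0.887, 892 and 16.4 CPM on day 1 (log2 fold change -2.31 ± 0.41, edgeR adjusted p = 0.0466), and without E42 Anterior -1.996 (adjusted p = 0.0816). INPP4B, a phosphoinositide phosphatase gene, had 1.84, 0.180, 12.7 and 0.658 CPM on day 5, against 6.96, 1.54, 46.99 and 2.11 CPM on day 1 (log2 fold change -2.001 ± 0.22, edgeR adjusted p = 0.0203). Without E42 Anterior its log2 fold change was -2.08 (edgeR adjusted p = 0.0181). The groups of these 5 genes overlapped.

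The other 5 of the 10 largest falls were of PODXL, LRP2, EFCC1, SCUBE1 and GPR50. Each was called also without E42 Anterior. Without E42 Posterior none of them passed (edgeR adjusted p = 0.0927, 0.138, 0.119, 0.175 and 0.168). Without E77 Frontal only PODXL passed (edgeR adjusted p = 0.0407). Without E77 Occipital PODXL, LRP2 and EFCC1 passed, but SCUBE1 and GPR50 did not (edgeR adjusted p = 0.126 and 0.0646). PODXL, the gene of the surface sialomucin podocalyxin, had 39.7, 16.8, 21.01 and 21.3 CPM on day 5, against 123, 115, 87.00 and 116 CPM on day 1 (log2 fold change -2.22 ± 0.19, edgeR adjusted p = 0.0203). LRP2, the gene of the endocytic receptor megalin, had 5.18, 4.25, 7.11 and 11.8 CPM on day 5, against 21.5, 45.1, 19.8 and 48.9 CPM on day 1 (log2 fold change -2.23 ± 0.32, edgeR adjusted p = 0.0311). EFCC1 had 6.82, 3.53, 10.1 and 5.26 CPM on day 5, against 17.8, 24.3, 33.2 and 18.4 CPM on day 1 (log2 fold change -1.91 ± 0.23, edgeR adjusted p = 0.0203). EFCC1 was also highest in E42 Anterior on each day. The highest day 5 library of each of these 3 genes stood below the lowest day 1 library. SCUBE1, a secreted protein gene, had 6.53, 36.5, 36.02 and 52.6 CPM on day 5, against 35.2, 184, 57.7 and 212 CPM on day 1 (log2 fold change -1.86 ± 0.32, edgeR adjusted p = 0.0440). GPR50, an orphan receptor gene related to the melatonin receptors, had 0.0408, 0.432, 6.78 and 6.34 CPM on day 5, against 0.329, 4.86, 17.3 and 18.3 CPM on day 1 (log2 fold change -1.98 ± 0.38, edgeR adjusted p = 0.0440), with little signal in E77 Frontal. Both fell in all 4 series while their groups overlapped. MFAP4, DRAXIN, ITGA1, PODXL, SCUBE1, PAPPA and EFCC1 overlap another protein-coding gene in the RefSeq table, and whether the counting used strand is not stated.

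**Figure D2:**
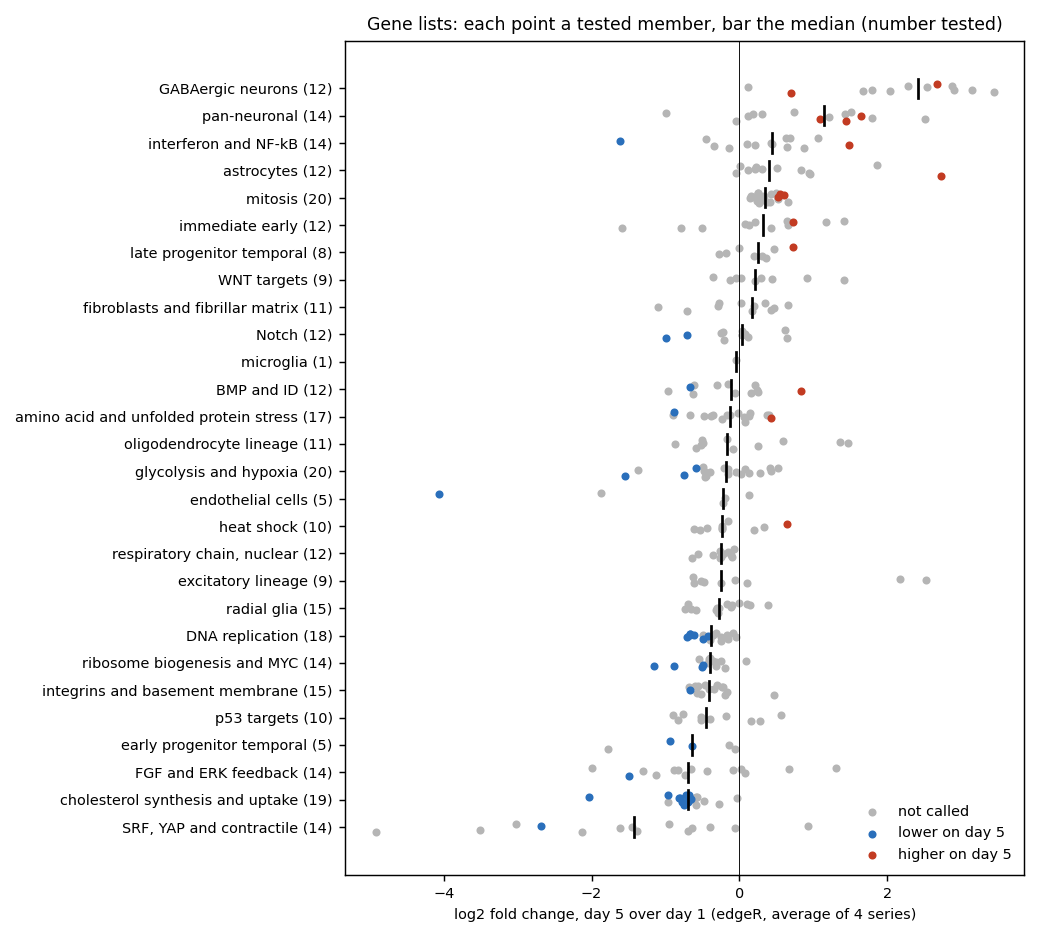
Log2 fold change, day 5 over day 1, of each tested member of 28 gene lists (points, coloured where the adjusted p was under 0.05), with the list median (bar) and the number tested. The medians run from -1.42 for the contractile list to 2.41 for the GABAergic list, and the called members are few in most lists.

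Genes of GABAergic neurons, the inhibitory neurons of the cortex, had the highest list median: 2 rose and 0 fell of 12 tested, with a median log2 fold change of 2.41, against 2.65% higher and -0.00082 over all genes. CALB2, given above, was among the rises. All 12 fold changes were positive. In all 4 series 11 members were higher, against 16.7% of all genes tested. At an unadjusted p of 0.05, 11 passed, against 2277 higher of all 18242 genes. The shares over all genes, 2.65% higher and 2.09% lower, apply to the counts of every list below. For counts without E42 Anterior they are 3.68% and 2.39%. The homeobox gene DLX2, which specifies interneuron precursors, had 218, 205, 193 and 253 CPM on day 5, against 36.7, 19.7, 85.97 and 117 CPM on day 1 (log2 fold change 2.03 ± 0.45, edgeR adjusted p = 0.0691). GAD1, which encodes an enzyme of GABA synthesis, had 121, 59.1, 75.8 and 77.7 CPM on day 5, against 42.2, 6.90, 22.7 and 39.3 CPM on day 1 (log2 fold change 1.80 ± 0.34, edgeR adjusted p = 0.0513). DLX5 had 63.5, 34.2, 79.7 and 107 CPM on day 5, against 1.73, 0, 14.3 and 48.3 CPM on day 1, the widest spread of the list, with log2 changes of 5.15, 8.98, 2.47 and 1.14 (edgeR adjusted p = 0.140). The change was widest in E77 Occipital and narrowest in E42 Posterior, the series with the highest summed day 1 level: the list medians of the log2 change were 2.77, 4.24, 1.95 and 0.97. Summed over the 12 members, the list had 898 to 1250.4 CPM on day 5, against 201 to 663 CPM on day 1, without overlap. LHX6, a factor gene of interneurons from the medial ganglionic eminence, was too low to test, with at most 5 counts. DLX2, GAD1 and DLX5 were described after their values were seen.

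Pan-neuronal genes also leaned upward: 3 rose and 0 fell of 14 tested, against 2.65% higher over all genes, with a median of 1.15. DCX, the microtubule protein gene of newborn neurons, had 1022, 729, 1069.9 and 1275 CPM on day 5, against 296, 315, 303 and 648 CPM on day 1 (log2 fold change 1.45 ± 0.17, edgeR adjusted p = 0.0203). Its lowest day 5 library was above its highest day 1 library, E42 Posterior. ELAVL4, an RNA-binding protein gene of neurons, had 47.2, 41.5, 57.2 and 93.3 CPM on day 5, against 7.49, 11.6, 23.1 and 50.4 CPM on day 1 (log2 fold change 1.65 ± 0.29, edgeR adjusted p = 0.0455), and the neurofilament gene INA averaged 104 ± 72.5 CPM on day 5 and 57.4 ± 53.5 CPM on day 1 (SD, n = 4 each; log2 fold change 1.09 ± 0.19, edgeR adjusted p = 0.0401). Without E42 Anterior 2 members were called higher, and the log2 fold change of ELAVL4 was 1.76 (adjusted p = 0.101) and of INA 1.04 (adjusted p = 0.0850). Other members did not pass: MAP2, a dendritic microtubule protein gene, averaged 1308 ± 127 CPM on day 5 and 1369.9 ± 255 CPM on day 1 (log2 fold change -0.05 ± 0.11), and the light neurofilament gene NEFL had a fold change of -0.999 ± 0.38 (edgeR adjusted p = 0.186). For the excitatory lineage, 0 rose and 0 fell of 9 tested, with a median of -0.24. EOMES, the factor gene of intermediate progenitors, had 11.96, 1.44, 12.6 and 109.5 CPM on day 5, against 3.38, 0.0386, 5.80 and 13.6 CPM on day 1 (log2 fold change 2.18 ± 0.44, edgeR adjusted p = 0.0563). Without E42 Anterior 2 members were called higher; EOMES passed, at 2.63 with an adjusted p of 0.0326. BCL11B, a factor gene of deep-layer and other neurons, had 79.7, 59.8, 96.8 and 121 CPM on day 5, against 4.65, 3.93, 31.5 and 67.9 CPM on day 1 (log2 fold change 2.52 ± 0.68, edgeR adjusted p = 0.104). FEZF2, a factor gene of early progenitors and subcerebral neurons, had 4.04, 3.39, 30.5 and 81.03 CPM on day 5, against 7.12, 4.09, 48.8 and 101 CPM on day 1 (log2 fold change -0.52 ± 0.12, edgeR adjusted p = 0.0554). NEUROG1, NEUROG2, NEUROD1 and SLC17A7 were too low to test, although NEUROG2 reached 251 counts on day 5 in E42 Posterior, against 17 counts there on day 1.

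Genes of the stem cells themselves did not pass: of the radial glia list, 0 rose and 0 fell of 15 tested, with a median of -0.28 and 12 of 15 fold changes negative. SOX2, a core stem cell factor gene, averaged 607 ± 141 CPM on day 5 and 611 ± 160.5 CPM on day 1 (SD, n = 4 each). PAX6, a factor gene of cortical progenitors, averaged 131 ± 45.9 CPM on day 5 and 116 ± 29.3 CPM on day 1 (log2 fold change 0.14 ± 0.11). The receptor phosphatase gene PTPRZ1 had 2939, 3756, 1657 and 2256 CPM on day 5, against 2658, 5647, 1908 and 3388 CPM on day 1 (log2 fold change -0.31 ± 0.15, edgeR adjusted p = 0.265). HOPX, a marker of outer radial glia, averaged 256 ± 119 CPM on day 5 and 447 ± 222 CPM on day 1 (log2 fold change -0.73 ± 0.25, edgeR adjusted p = 0.149), with changes of -0.76, -0.77, 0.12 and -1.50 in the 4 series. Without E42 Anterior 1 member was called lower. With all 4 series the adjusted p of every member was above 0.05, which does not show that their levels were equal. Among astrocyte genes, 1 rose and 0 fell of 12 tested, AQP4 alone, with a median of 0.40. GFAP, the intermediate filament gene of astrocytes and primate radial glia, had 5737, 2145, 1546 and 481 CPM on day 5, against 4431, 1679.6, 1327 and 517 CPM on day 1 (log2 fold change 0.21 ± 0.12), so the series differed from each other more than the days did. CLU, which encodes the chaperone clusterin, had 1381, 884, 469 and 609.9 CPM on day 5, against 901, 319, 245 and 483 CPM on day 1 (log2 fold change 0.84 ± 0.19, edgeR adjusted p = 0.0543). APOE, the gene of a lipid carrier of glia, averaged 471 ± 467 CPM on day 5 and 189 ± 293 CPM on day 1 (log2 fold change 1.86 ± 0.40, edgeR adjusted p = 0.0665), and was higher on day 5 in all 4 series. Of the oligodendrocyte lineage, 0 rose and 0 fell of 11 tested, with a median of -0.17. The precursor receptor gene PDGFRA had 424, 558, 684 and 118 CPM on day 5, against 321, 598, 132 and 130.2 CPM on day 1, the widest difference being in E42 Anterior, and the myelin enzyme gene CNP had a fold change of -0.08 ± 0.10.

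Of the cell cycle lists, DNA replication held falls only and mitosis rises only. All 18 replication genes had negative fold changes, 0 rose and 7 fell of 18 tested, and the median was -0.39, against 2.09% lower over all genes. In all 4 series 13 members were lower, against 17.4% of all genes tested. The called members were MCM3, MCM4, MCM5 and MCM6, subunits of the replicative helicase, GINS2 of the same complex, the clamp gene PCNA and TYMS, the gene of thymidylate synthase. MCM5 had 53.5, 38.6, 53.9 and 59.8 CPM on day 5, against 62.5, 68.1, 98.5 and 114 CPM on day 1 (log2 fold change -0.71 ± 0.13, edgeR adjusted p = 0.0380), every day 5 library below every day 1 library. TYMS had 123, 77.04, 105 and 139 CPM on day 5, against 184, 124, 182 and 212 CPM on day 1 (log2 fold change -0.67 ± 0.08, edgeR adjusted p = 0.0203), the days overlapping. The ribonucleotide reductase genes RRM1 and RRM2 had fold changes of -0.05 ± 0.11 and -0.08 ± 0.14, near the median of all genes. By series, the list medians of the log2 change were -0.22, -0.39, -0.66 and -0.37.

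All 20 mitosis genes had positive fold changes, 3 rose and 0 fell of 20 tested, and the median was 0.35, against 2.65% higher over all genes. TOP2A, the topoisomerase gene of chromosome condensation, had 554, 415, 379 and 809 CPM on day 5, against 392, 235, 309 and 472 CPM on day 1 (log2 fold change 0.60 ± 0.12, edgeR adjusted p = 0.0416). NUSAP1, a spindle protein gene, had 105, 76.4, 73.4 and 139 CPM on day 5, against 74.7, 50.5, 60.1 and 79.3 CPM on day 1 (log2 fold change 0.55 ± 0.10, edgeR adjusted p = 0.0388). CENPF, a kinetochore protein gene, averaged 511 ± 145 CPM on day 5 and 351 ± 80.1 CPM on day 1 (SD, n = 4 each; log2 fold change 0.52 ± 0.11, edgeR adjusted p = 0.0467). MKI67, the marker gene of cycling cells, averaged 773 ± 196 CPM on day 5 and 632 ± 127 CPM on day 1 (log2 fold change 0.27 ± 0.10, edgeR adjusted p = 0.167). The list medians by series were 0.28, 0.55, 0.07 and 0.63, lowest in E42 Anterior, where BUB1, CCNB1 and CDK1 were lower on day 5. Without E42 Anterior 9 of the 20 mitosis genes were called higher and 6 of the 18 replication genes lower, against 3.68% higher and 2.39% lower over the 18080 genes tested in that fit. NUSAP1 overlaps the protein-coding gene OIP5 in the RefSeq table.

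**Figure D3:**
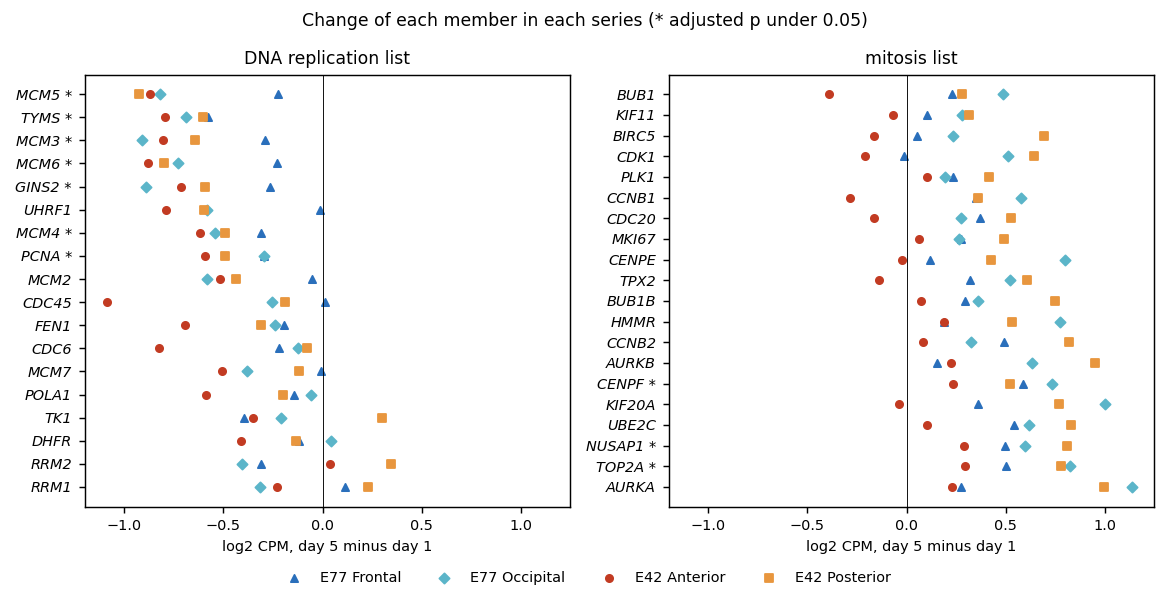
Log2 CPM on day 5 minus day 1 for each member of the DNA replication list (left) and the mitosis list (right), 1 point per culture series. Replication genes lie mostly left of 0 and mitosis genes mostly right of it, with E42 Anterior the lowest series for most genes of both lists.

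FGF2 was given on both days, and the genes that read out its signal moved unequally. Among 14 genes of the FGF and ERK feedback list, 1 fell and 0 rose, against 2.09% lower over all genes, with a median of -0.69. ETV4, a PEA3 factor gene that ERK signalling switches on, had 22.2, 14.7, 21.8 and 24.1 CPM on day 5, against 61.4, 48.5, 36.4 and 97.8 CPM on day 1 (log2 fold change -1.49 ± 0.21, edgeR adjusted p = 0.0270). Every day 5 library of ETV4 was below every day 1 library. Without E42 Anterior its log2 fold change was -1.74 (edgeR adjusted p = 0.00293). Without E42 Posterior, E77 Frontal and E77 Occipital in turn it was -1.30, -1.48 and -1.41 (edgeR adjusted p = 0.122, 0.0902 and 0.0930). DUSP6, the gene of the cytoplasmic ERK phosphatase, had 8.45, 6.37, 54.9 and 21.7 CPM on day 5, against 48.9, 73.6, 82.2 and 61.7 CPM on day 1 (log2 fold change -1.996 ± 0.52, edgeR adjusted p = 0.0968). SPRY4, a Sprouty inhibitor gene, had 13.1, 10.1, 36.3 and 19.7 CPM on day 5, against 37.9, 39.7, 57.8 and 25.4 CPM on day 1 (log2 fold change -1.12 ± 0.29, edgeR adjusted p = 0.0849). In the E77 series taken alone both passed, DUSP6 with -3.03 ± 0.34 (adjusted p = 0.0349) and SPRY4 with -1.75 ± 0.17 (adjusted p = 0.0153). The E42 series gave -1.04 ± 0.31 (adjusted p = 0.169) and -0.52 ± 0.17 (adjusted p = 0.166), and the difference between the ages did not pass for either gene (adjusted p = 0.511 and 0.338). Not all brakes were lower. DUSP5, the gene of a nuclear ERK phosphatase, had 3.43, 2.70, 3.66 and 2.63 CPM on day 5, against 1.03, 0.810, 1.30 and 1.999 CPM on day 1 (log2 fold change 1.31 ± 0.30, edgeR adjusted p = 0.0563). IL17RD, the SEF inhibitor gene, had 371, 425, 409 and 378 CPM on day 5, against 314, 418, 362 and 412 CPM on day 1 (log2 fold change 0.08 ± 0.10), and PHLDA1, an early response gene, 305, 269, 281 and 212 CPM on day 5, against 259.9, 191, 94.4 and 160.0 CPM on day 1 (0.67 ± 0.23). The list median of the log2 change was -1.05, -1.42, 0.17 and -0.33 in the 4 series. DUSP6, SPRY4 and DUSP5 were singled out after their values were seen. Without E42 Anterior 3 members were called lower.

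Genes of cholesterol synthesis and uptake held the most falls of any list: 0 rose and 11 fell of 19 tested. Over all genes 2.09% were called lower. All 19 fold changes were negative, and the median log2 fold change was -0.70. In all 4 series 17 members were lower, against 17.4% of all genes tested. Among the called members, the 7 genes INSIG1, IDI1, FDPS, FDFT1, SQLE, MSMO1 and STARD4, had log2 fold changes from -0.81 to -0.65. IDI1, the gene of an isomerase of the isoprenoid steps, had 114, 99.2, 95.3 and 90.7 CPM on day 5, against 153, 201, 183 and 161 CPM on day 1 (log2 fold change -0.81 ± 0.11, edgeR adjusted p = 0.0233). MSMO1, the gene of a sterol oxidase, had 116, 91.9, 117 and 71.4 CPM on day 5, against 144, 178, 248 and 131 CPM on day 1 (log2 fold change -0.81 ± 0.13, edgeR adjusted p = 0.0314). In both genes every day 5 library was below every day 1 library. SQLE, whose enzyme makes the epoxide of squalene, had 130.4, 112, 129.6 and 145 CPM on day 5, against 166, 215, 267 and 212 CPM on day 1 (log2 fold change -0.72 ± 0.13, edgeR adjusted p = 0.0379), again with no overlap. INSIG1, a brake of sterol synthesis in the endoplasmic reticulum, had 37.99, 46.4, 57.3 and 58.1 CPM on day 5, against 53.2, 106, 118 and 75.5 CPM on day 1 (log2 fold change -0.77 ± 0.15, edgeR adjusted p = 0.0451), the days overlapping. These 4 genes were described in full after their values were seen. PMVK was the exception near 0, at -0.03 ± 0.13. By series the list medians were -0.32, -0.94, -1.03 and -0.52, so that E77 Frontal changed least. Without E42 Anterior 7 of the 19 were called lower.

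**Figure D4:**
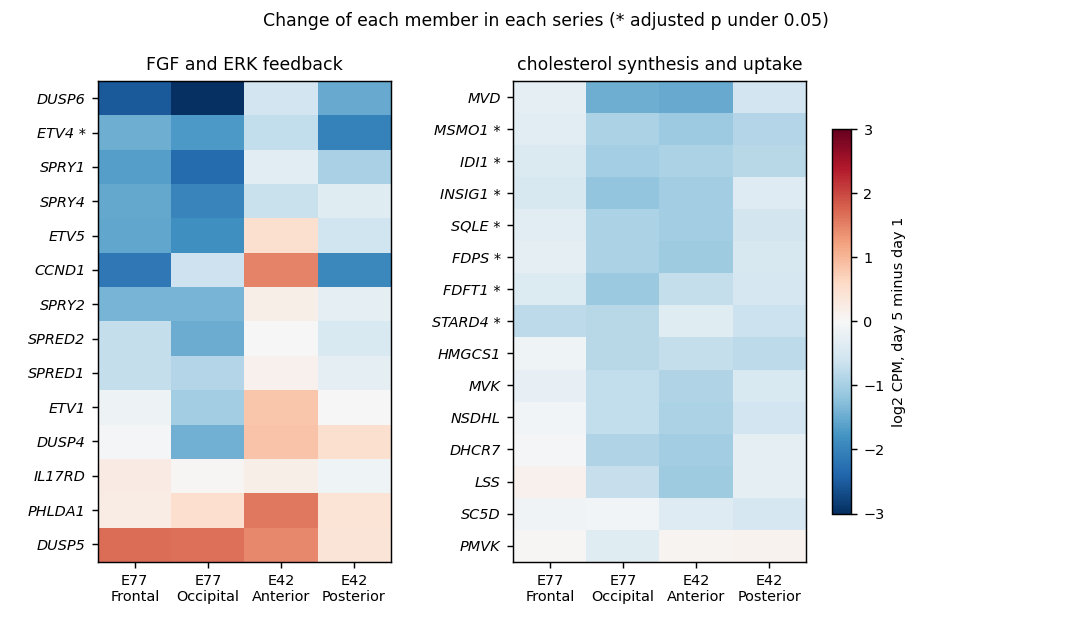
Log2 CPM on day 5 minus day 1 in each culture series (columns) for the members of the FGF and ERK feedback list (left) and 15 members of the cholesterol list (right), with genes ordered by their mean change; the colour scale ends at -3 and 3. DUSP6 in E77 Occipital, at -3.52, lies beyond it. Cholesterol genes are lower in nearly every cell, whereas several FGF feedback genes are lower in the E77 series and higher in E42 Anterior.

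On the glycolysis and hypoxia list 0 rose and 3 fell of 20 tested, against 2.09% lower over all genes, with a median of -0.18. Of the 20 fold changes 13 were negative and 7 positive. In all 4 series 7 members were lower on day 5, against 17.4% of all genes tested. The list median was 0.02 in the E77 series and -0.37 in the E42 series. HK2, the gene of a hexokinase that starts glycolysis, had 8.04, 4.47, 10.3 and 9.36 CPM on day 5, against 15.5, 22.1, 33.8 and 21.9 CPM on day 1 (log2 fold change -1.54 ± 0.23, edgeR adjusted p = 0.0270), with no overlap. PFKP, a phosphofructokinase gene, had 43.2, 14.9, 24.1 and 14.4 CPM on day 5, against 62.2, 19.6, 46.5 and 31.2 CPM on day 1 (log2 fold change -0.75 ± 0.14, edgeR adjusted p = 0.0388), and the glucose transporter gene SLC2A1 averaged 48.3 ± 4.48 CPM on day 5 and 74.3 ± 19.6 CPM on day 1 (SD, n = 4 each; log2 fold change -0.59 ± 0.12, edgeR adjusted p = 0.0440). LDHA, the lactate dehydrogenase gene, did not pass, with a fold change of -0.49 ± 0.32 nor did the hypoxia-responsive gene VEGFA, with 0.02 ± 0.18. Of the ribosome biogenesis and MYC list, 0 rose and 4 fell of 14 tested, against 2.09% lower over all genes. The median was -0.40, with 13 of 14 fold changes negative. MYC, the growth-promoting factor gene, had 15.7, 17.6, 24.04 and 9.54 CPM on day 5, against 35.2, 34.9, 68.3 and 18.5 CPM on day 1 (log2 fold change -1.16 ± 0.12, edgeR adjusted p = 0.0203). The ribosome assembly gene RRP12 had 23.5, 13.4, 22.6 and 21.8 CPM on day 5, against 28.3, 29.3, 44.4 and 48.2 CPM on day 1 (log2 fold change -0.88 ± 0.16, edgeR adjusted p = 0.0377), and its groups did not overlap. NPM1 and NOLC1, nucleolar protein genes, fell by 0.50 ± 0.10 and 0.51 ± 0.11 on the log2 scale (edgeR adjusted p = 0.0413 and 0.0467). MYCN, a relative of MYC, had a fold change of 0.10 ± 0.14. Without E42 Anterior 2 members of this list were called, the log2 fold change of RRP12 being -0.86 (adjusted p = 0.0534) and of NOLC1 -0.49 (adjusted p = 0.0572).

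Nuclear genes of the respiratory chain gave 0 rises and 0 falls of 12 tested, all 12 fold changes being negative, with a median of -0.24. ATP5F1B, a subunit gene of ATP synthase, had 246, 232, 270.1 and 313 CPM on day 5, against 292, 268, 378 and 439 CPM on day 1 (log2 fold change -0.36 ± 0.09, edgeR adjusted p = 0.0753). The stress lists held few calls, against 2.65% higher and 2.09% lower over all genes. Without E42 Anterior the log2 fold change of DDIT4 was 0.39 (adjusted p = 0.0719). Of the amino acid and unfolded protein list 1 rose and 1 fell of 17 tested: ASNS, the asparagine synthetase gene, had 3.51, 1.51, 72.2 and 12.2 CPM on day 5, against 9.80, 2.55, 98.3 and 23.7 CPM on day 1 (log2 fold change -0.89 ± 0.17, edgeR adjusted p = 0.0416), and DDIT4, an inhibitor gene of mTORC1, 132, 199, 125 and 160.0 CPM on day 5, against 101, 170.1, 86.5 and 109 CPM on day 1 (log2 fold change 0.43 ± 0.09, edgeR adjusted p = 0.0470). Of the heat shock list 1 rose and 0 fell of 10 tested, HSPA1A, which averaged 28.2 ± 4.44 CPM on day 5 and 18.3 ± 3.91 CPM on day 1 (SD, n = 4 each; log2 fold change 0.64 ± 0.10, edgeR adjusted p = 0.0311), with no overlap. HSPA1A has a near-identical copy, HSPA1B, so its count is uncertain, and the constitutive chaperone gene HSPA8 had a fold change of -0.24 ± 0.10. Of the p53 targets 0 rose and 0 fell of 10 tested, with a median of -0.45; ZMAT3 had 331, 354, 164 and 231 CPM on day 5, against 503, 364, 240.4 and 427 CPM on day 1 (log2 fold change -0.52 ± 0.14, edgeR adjusted p = 0.0809).

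Contractile genes and targets of SRF and YAP, which respond to the actin skeleton and cell spreading, had the lowest list median, -1.42. Only 1 fell and 0 rose of 14 tested, against 2.09% lower over all genes. ACTG2, a smooth muscle actin gene, had 0.816, 0.180, 52.3 and 0.479 CPM on day 5, against 2.31, 0.0771, 516 and 3.69 CPM on day 1 (log2 fold change -2.69 ± 0.48, edgeR adjusted p = 0.0458). It was higher on day 5 in E77 Occipital at a level under 1 CPM, and its log2 fold change without E42 Anterior was -1.76 (adjusted p = 0.142). CCN2, a YAP target gene of matrix signalling, had 1.59, 0.288, 28.2 and 2.45 CPM on day 5, against 5.68, 35.3, 2643 and 40.4 CPM on day 1 (log2 fold change -4.92 ± 0.96, edgeR adjusted p = 0.0563). All 4 series of CCN2 were lower on day 5, with log2 changes of -1.79, -6.63, -6.55 and -4.01. ACTA2, the smooth muscle actin alpha gene, had 1.67, 0.540, 117 and 0.838 CPM on day 5, against 2.88, 0.964, 2055 and 14.8 CPM on day 1 (log2 fold change -3.02 ± 0.78, edgeR adjusted p = 0.0950). The list summed to 2005 to 3446 CPM on day 5, against 2768 to 17004 CPM on day 1, the highest value being that of E42 Anterior on day 1. TAGLN, another smooth muscle gene, had 407 CPM on day 5 and 2246 CPM on day 1 in that series. The medians by series were -0.56, -0.61, -2.36 and -1.52. CCN2 and ACTA2 were described after their values were seen.

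Integrin and basement membrane genes were mostly lower, 14 of 15 fold changes being negative with a median of -0.41. Of 15 tested 0 rose and 1 fell, against 2.09% lower over all genes. COL4A1, a basement membrane collagen gene, had 157, 99.3, 1744 and 81.8 CPM on day 5, against 202, 134, 3676 and 142 CPM on day 1 (log2 fold change -0.67 ± 0.14, edgeR adjusted p = 0.0470), and its partner COL4A2, which overlaps it in the RefSeq table, had 428, 357, 2482 and 355 CPM on day 5, against 465, 566, 2976 and 403 CPM on day 1 (log2 fold change -0.31 ± 0.12, edgeR adjusted p = 0.179). FN1, the fibronectin gene, had 425, 46.8, 12172 and 117 CPM on day 5, against 765, 71.4, 8904 and 242 CPM on day 1 (log2 fold change -0.52 ± 0.25, edgeR adjusted p = 0.262), higher on day 5 in E42 Anterior and lower in the other 3 series. Without that series 4 members of the list were called lower and FN1 passed, at -0.84 (adjusted p = 0.0120). Of the fibroblast list 0 rose and 0 fell of 11 tested; COL1A1 had a fold change of -0.28 ± 0.46 and COL3A1 of -0.29 ± 0.53. Both were higher on day 5 in E42 Anterior and lower in E42 Posterior. Of 5 endothelial genes tested, FLT1 fell; KDR, the main receptor gene for vascular endothelial growth factor, had 6.33, 1.15, 6.81 and 2.51 CPM on day 5, against 16.3, 5.32, 12.97 and 21.9 CPM on day 1 (log2 fold change -1.87 ± 0.38, edgeR adjusted p = 0.0506). KDR passed without E42 Anterior, at -2.22 (adjusted p = 0.0236). The adhesion gene PECAM1 had a fold change of -0.22 ± 0.23, CDH5 and ERG were too low to test, and the list summed to 4.40 to 25.3 CPM on day 5, against 8.45 to 148 CPM on day 1. The single microglial gene tested, CD68, had 2.04, 2.41, 2.13 and 2.93 CPM on day 5, against 2.63, 3.09, 2.33 and 1.89 CPM on day 1. Whether shifts in these cell types enter the other lists was not tested. Of the interferon and NF-kB list 1 rose and 1 fell of 14 tested: IFIT1, an interferon-induced gene, had 2.73, 3.31, 8.61 and 2.18 CPM on day 5, against 1.73, 0.771, 3.31 and 0.583 CPM on day 1 (log2 fold change 1.48 ± 0.29, edgeR adjusted p = 0.0430), and LIF, a cytokine gene, 2.000, 0.540, 1.29 and 0.748 CPM on day 5, against 4.24, 1.23, 6.91 and 2.39 CPM on day 1 (log2 fold change -1.62 ± 0.30, edgeR adjusted p = 0.0385), both low. Without E42 Anterior the log2 fold change of IFIT1 was 1.52 (adjusted p = 0.0525).

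On the Notch list, of genes for signals between neighbouring cells, 0 rose and 2 fell of 12 tested, against 2.09% lower over all genes. Its fold changes were 7 positive and 5 negative, from -0.99 to 0.64, with a median of 0.03. JAG1, a Notch ligand gene, had 301, 186, 341 and 117 CPM on day 5, against 512, 503, 729 and 187 CPM on day 1 (log2 fold change -0.99 ± 0.14, edgeR adjusted p = 0.0233), and HEY2, a Notch target gene, 8.28, 5.76, 53.8 and 8.05 CPM on day 5, against 13.4, 10.3, 66.8 and 16.05 CPM on day 1 (log2 fold change -0.70 ± 0.13, edgeR adjusted p = 0.0404). The receptor gene NOTCH1 averaged 921 ± 223 CPM on day 5 and 1053 ± 212 CPM on day 1 (log2 fold change -0.21 ± 0.11), and the target gene HES5 had a fold change of 0.03 ± 0.25. On the BMP list 1 rose and 1 fell of 12 tested, against 2.65% higher and 2.09% lower over all genes. CHRDL1, a secreted BMP antagonist gene, had 76.6, 74.6, 33.02 and 52.9 CPM on day 5, against 35.9, 49.3, 21.2 and 26.04 CPM on day 1 (log2 fold change 0.84 ± 0.11, edgeR adjusted p = 0.0225), and BMP7, a ligand gene, 42.4, 52.01, 48.3 and 99.1 CPM on day 5, against 64.4, 101, 76.7 and 135 CPM on day 1 (log2 fold change -0.67 ± 0.10, edgeR adjusted p = 0.0270). The target genes ID1 and ID3 had fold changes of -0.63 ± 0.71 and -0.96 ± 0.59 and differed in sign between series. Of the WNT targets 0 rose and 0 fell of 9 tested, with a median of 0.22; APCDD1, a WNT inhibitor gene, had 95.5, 200.3, 72.97 and 55.9 CPM on day 5, against 54.3, 184, 62.9 and 54.4 CPM on day 1 (log2 fold change 0.30 ± 0.14). Of the immediate early genes 1 rose and 0 fell of 12 tested: EGR1, a factor gene induced by ERK and by SRF, had 51.6, 56.9, 115 and 73.97 CPM on day 5, against 33.8, 46.2, 56.8 and 37.5 CPM on day 1 (log2 fold change 0.73 ± 0.13, edgeR adjusted p = 0.0387), while JUN had a fold change of 0.65 ± 0.21 (edgeR adjusted p = 0.135). The list was mixed, with 9 fold changes positive and 3 negative, from -1.58 to 1.42, and a median of 0.32. In all 4 series 4 members were higher and 2 lower. Without E42 Anterior 3 immediate early genes were called higher, as were 1 Notch gene and 1 WNT target, while 2 Notch genes were called lower.

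Genes that mark the age of cortical progenitors gave 2 falls among 5 early genes and 1 rise among 8 late genes, against 2.09% lower and 2.65% higher over all genes. IGF2BP1, an RNA-binding protein gene of young progenitors, had 0.408, 0.216, 47.2 and 42.3 CPM on day 5, against 1.11, 0.231, 91.5 and 78.96 CPM on day 1 (log2 fold change -0.94 ± 0.14, edgeR adjusted p = 0.0270). Its level separated the ages on each day, and the E77 series were near or under 1 CPM throughout. IGF2BP2, of the same family, had 82.97, 36.8, 101 and 74.1 CPM on day 5, against 112, 54.2, 159 and 142 CPM on day 1 (log2 fold change -0.64 ± 0.10, edgeR adjusted p = 0.0283), whereas IGF2BP3 had a fold change of -0.05 ± 0.07. HMGA2, a chromatin protein gene of fetal stem cells singled out after its values were seen, had 3.92, 1.04, 6.45 and 6.49 CPM on day 5, against 6.50, 10.3, 17.5 and 23.99 CPM on day 1 (log2 fold change -1.78 ± 0.39, edgeR adjusted p = 0.0613). Each of its day 5 libraries was below each day 1 library. LIN28A and LIN28B, classic genes of early development, were too low to test, with at most 24 counts. On the late side TCF4 rose, with 557, 854, 616 and 750.5 CPM on day 5, against 317, 559, 318 and 526 CPM on day 1 (log2 fold change 0.72 ± 0.11, edgeR adjusted p = 0.0268). NFIX, a nuclear factor I gene of late progenitors, had 1212, 1606, 765 and 908 CPM on day 5, against 801, 1411, 717 and 714 CPM on day 1 (log2 fold change 0.31 ± 0.12, edgeR adjusted p = 0.165), and NFIA averaged 769 ± 167 CPM on day 5 and 604 ± 157 CPM on day 1 (log2 fold change 0.36 ± 0.10, edgeR adjusted p = 0.0825). Without E42 Anterior 2 late genes were called higher.

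Day 3 placed the changes within the stem phase. In the fit of the 12 libraries of days 1, 3 and 5, day 3 differed from day 1 in 31 higher (0.163%) and 51 lower genes (0.269%) of 18991 tested (82 in all, 0.432%), and day 5 from day 3 in 13 higher (0.0685%) and 1 lower (0.00527%; 14 in all, 0.0737%). The day 3 and day 5 contrasts share their day 3 libraries. Of the genes called between day 5 and day 1, the day 3 level lay between the other days in all 4 series for 205 of 483 higher and 148 of 382 lower genes, and in at least 3 series for 404 and 309. Genes called for a gap between days 1 and 5 tend to have day 3 within it. The share over all tested genes was not counted, so these counts do not show that changes were gradual. Some falls were mostly made by day 3. PODXL had 123, 115, 87.00 and 116 CPM on day 1, 49.2, 17.1, 29.98 and 32.3 CPM on day 3 and 39.7, 16.8, 21.01 and 21.3 CPM on day 5, with log2 changes of -1.87 ± 0.21 for day 3 over day 1 (adjusted p = 0.0195) and -0.37 ± 0.21 for day 5 over day 3 (adjusted p = 0.676). MYC had 35.2, 34.9, 68.3 and 18.5 CPM on day 1, 21.3, 14.6, 27.2 and 8.63 CPM on day 3 and 15.7, 17.6, 24.04 and 9.54 CPM on day 5, with -1.11 ± 0.13 (adjusted p = 0.0195) and -0.05 ± 0.13 (adjusted p = 0.955). Replication genes were lower by day 3: 4 of 18 were called there, with a list median of -0.40 for day 3 over day 1 and 0.01 for day 5 over day 3. The FGF feedback list had medians of -0.66 and 0.02. DCX passed in the later step. DCX had 296, 315, 303 and 648 CPM on day 1, 515, 443, 490.3 and 701 CPM on day 3 and 1022, 729, 1069.9 and 1275 CPM on day 5, with 0.51 ± 0.13 (adjusted p = 0.0885) and 0.93 ± 0.14 (adjusted p = 0.0437). The pan-neuronal list had medians of 0.14 and 0.96, the GABAergic list 0.98 and 1.22, and the cholesterol list -0.28 and -0.38. PAPPA was lower in both steps, by 1.34 ± 0.18 and 2.09 ± 0.21 on the log2 scale (adjusted p = 0.0217 and 0.0128). Whether the steps differ from each other was not tested.

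Taken by age, the 2 E77 series gave 139 higher (0.762%) and 40 lower genes (0.219%), 179 in all (0.981%). The 2 E42 series gave 20 higher (0.11%) and 24 lower genes (0.132%), 44 in all (0.241%). The difference of the change between the ages, E77 minus E42, passed for 0 genes of 18242 (0%), with a smallest adjusted p of 0.0546. At an unadjusted p of 0.05, 616 genes had a higher and 527 a lower difference, and the DESeq2 Wald test called 104 and 56. The counts of the ages are therefore not shown to differ. BCL11B had a log2 change of 4.01 ± 0.23 in the E77 series (adjusted p = 0.00507) and 1.22 ± 0.20 in the E42 series (adjusted p = 0.0621), a difference of 2.79 ± 0.30 (adjusted p = 0.165). AQP4 passed at both ages, with 3.20 ± 0.20 in the E77 series (adjusted p = 0.00507) and 2.18 ± 0.21 in the E42 series (adjusted p = 0.0362). ITGA1 had -1.15 ± 0.23 in the E77 series (adjusted p = 0.0885) and -2.96 ± 0.18 in the E42 series (adjusted p = 0.0127), a difference of 1.81 ± 0.29 (adjusted p = 0.263). List medians set side by side were 3.32 at E77 and 1.36 at E42 for the GABAergic list, -1.25 and -0.06 for FGF feedback, -0.60 and -2.02 for contractile genes, and -0.65 and -0.73 for cholesterol. Across all genes, the log2 changes of the 2 E77 series correlated at 0.503 and those of the 2 E42 series at 0.372, a description over genes, which are not independent.

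**Figure D5:**
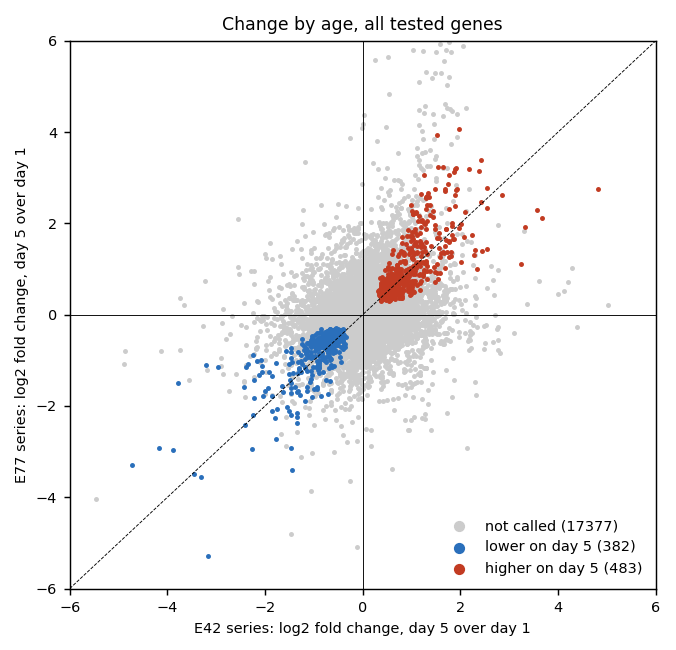
Log2 fold change, day 5 over day 1, in the E77 series (vertical) against the E42 series (horizontal) for the 18242 genes tested, each a point, coloured where the average of the 4 series passed; 13 genes lie beyond the axes. The 483 higher and 382 lower genes lie in the quadrants where both ages moved the same way, and scatter about the dashed line of equal change. The test that called them favours a like change in all 4 series, so their position is no separate support.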

How the data were processed

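Poly(A) RNA libraries made with dUTP for strand specificity were sequenced, per the labels' protocols, and STAR and featureCounts made the counts, per the submitters' processing notes. The sources used here do not give the genome build, annotation or strand setting, so no coordinates or sequences are printed. The authors deposited whole-number read counts and RPKM values for 34619 genes of 38 libraries. Tests on the 8 libraries used edgeR 4.0.16 under R 4.3.3, with genes kept by filterByExpr within day (18242 genes tested, 6819 with 0 counts and 9558 too low), TMM factors, robust quasi-likelihood tests and Benjamini-Hochberg adjustment at 0.05. The culture series was a block (3 residual degrees of freedom), with a day effect per age for E77, E42 and their difference (2), and days 1, 3 and 5 in 1 fit for the steps (6). The SE is that of the log2 fold change. Log2 CPM used a prior count of 2. The block comes from the labels, which name the same age and region on each day; deviations of the day 5 and day 1 libraries of a series from their day means correlated at 0.791, 0.669, 0.788 and 0.748. None of 66 library pairs differed by less than 1.5 times the counting noise (lowest ratio 20.3, 14592 genes).

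Named were the 10 largest rises and falls among called genes with a symbol, a mean of at least 10 CPM on the higher day and 1 direction in all 4 series, and from each of 29 lists the 2 called members of largest change or, with fewer called, up to 2 of the highest mean. A single series could carry that mean, as E42 Anterior did for ISLR, FLT1 and INHBA, among others. Genes described after their values were seen are marked so. Called members of lists with few calls, such as INA, CENPF, SLC2A1, NPM1 and NOLC1, and members given as contrast were also added then. The members and the lists were chosen with earlier results of these data known. Some genes of the lists are not reported here by name, though counts and medians include them. Alternatives were DESeq2 size factors, no filter, 12 or 38 libraries in the fit, the DESeq2 1.42.0 Wald test, no replicate block, each series left out, and limma 3.58.1 on log2(RPKM + 1) or log2(RPKM + 0.1) for genes of RPKM at least 1 in at least 2 libraries. Of 110 named genes, 109 were found in the RefSeq table, 43 of them overlapping another gene and 16 a protein-coding one. Beside those named above as overlapping, the 16 include APCDD1, CNP, GABRB2, GFAP, SLC2A1 and ZMAT3, whose counts carry the same uncertainty.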

Additional observations from a re-analysis of the deposited data

Results flagged for a closer look

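The highest or lowest of 4 libraries of a day stood apart from the other 3 in 10 of 220 groups checked (4.55%, over 110 genes), and chance gives about 1 in 20. In E42 Anterior, ISLR had 326 CPM on day 5, against 0.324 to 1.05 in the other series, and HEY2 53.8 CPM on day 5, against 5.76 to 8.28. COL4A1 had 3676 CPM there on day 1, against 134 to 202, and COL4A2 had 2482 CPM on day 5, against 355 to 428, and 2976 CPM on day 1, against 403 to 566. In E77 Occipital, APCDD1 had 184 CPM on day 1, against 54.3 to 62.9, and NFIX 1411 CPM on day 1, against 714 to 801. RRP12 was low there on day 5 at 13.4 CPM, against 21.8 to 23.5, and so was SLC6A6 at 2.16 CPM, against 13.6 to 15.0. DCX had 648 CPM on day 1 in E42 Posterior, against 296 to 315 elsewhere. Of these genes DCX and ISLR were called higher on day 5, HEY2, COL4A1, RRP12 and SLC6A6 lower, and COL4A2, APCDD1 and NFIX neither.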

How the results depend on the processing

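Of the 110 named genes, 0 changed sign under DESeq2 size factors, no filter, the DESeq2 Wald test, 12 or 38 libraries and, for the 107 that could be tested, without replicate 1 (E42 Anterior). The largest rises and falls were named for moving 1 way in all 4 series, and many list members for being called. Their stable direction therefore follows in part from how they were chosen. Sign changes were those of genes not called. Without the replicate block COL1A1 had 1.005, COL3A1 1.18 and FN1 0.35. With a series left out, COL1A1 ran from -0.80 to 0.24, COL3A1 from -1.07 to 0.24, TCF7L2 from -0.00544 to 0.0748 and CD68 from -0.275 to 0.0712. The number of calls was not stable. For day 5 against day 1 there were 1389 higher and 1352 lower genes with 12 libraries in the fit, 1430 higher and 1661 lower with 38 and 1358 higher and 1072 lower by DESeq2. DESeq2 size factors gave 499 higher and 343 lower, and no filter gave 596 higher and 546 lower. Limma gave 304 higher and 275 lower on log2(RPKM + 0.1), and 348 higher and 296 lower on log2(RPKM + 1). On log2(RPKM + 1) with no filter it gave 0 and 0. Without the replicate block, and so without the pairing, both counts were 0, and leaving out a series gave 0 to 666 higher and 0 to 433 lower. For E42 the counts were 66 higher and 47 lower with DESeq2 size factors, 384 higher and 413 lower with no filter, 663 higher and 730 lower with 12 libraries, 912 higher and 1265 lower with 38 and 580 higher and 513 lower by DESeq2. For E77 they were 144 higher and 41 lower with DESeq2 size factors, and 364 higher and 143 lower with no filter. They were 509 higher and 224 lower with 12 libraries, 784 higher and 384 lower with 38 and 541 higher and 239 lower by DESeq2. The age difference gave 2 higher and 0 lower with DESeq2 size factors, 38 higher and 13 lower with no filter, 20 higher and 6 lower with 12 libraries, 52 higher and 19 lower with 38 and 104 higher and 56 lower by DESeq2. The DESeq2 tests by age were added after the data were seen. Day 3 against day 1 gave 190 higher and 373 lower with 38 libraries, and 45 higher and 86 lower with DESeq2 size factors. With a series left out it gave 0 to 302 higher and 0 to 289 lower. Day 5 against day 3 gave 15 higher and 1 lower with 38 libraries, and 18 higher and 1 lower with DESeq2 size factors. With a series left out it gave 0 to 8 higher and 0 to 4 lower. The cause of these differences was not tested.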

Other observations

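The 10 rises and 10 falls next in size, were taken after the first 10 were seen. GABRB2, a GABA-A receptor subunit gene, had 13.4, 19.5, 11.1 and 44.3 CPM on day 5, against 3.87, 2.70, 4.54 and 9.72 CPM on day 1 (log2 fold change 2.02 ± 0.25, edgeR adjusted p = 0.0211), and its groups did not overlap. CELF4, a neuronal RNA-binding protein gene, had 10.5, 8.46, 32.3 and 44.5 CPM on day 5, against 1.07, 3.09, 9.50 and 20.3 CPM on day 1 (log2 fold change 1.80 ± 0.34, edgeR adjusted p = 0.0466). The calcium channel subunit gene CACNG5 rose by 1.93 ± 0.35 (edgeR adjusted p = 0.0401), with the day 3 level between the other days in 1 of 4 series only. PIK3IP1, an inhibitor gene of phosphoinositide 3-kinase, had 54.4, 62.6, 28.5 and 41.3 CPM on day 5, against 23.1, 20.6, 8.14 and 5.91 CPM on day 1 (log2 fold change 1.85 ± 0.26, edgeR adjusted p = 0.0290). NDRG2, a gene of differentiated astroglia, had 25.9, 119, 88.9 and 74.4 CPM on day 5, against 4.20, 48.3, 24.3 and 17.9 CPM on day 1 (log2 fold change 1.94 ± 0.20, edgeR adjusted p = 0.0203). ACVR1C, an activin receptor gene, rose by 2.19 ± 0.34 and FOXO6, a forkhead factor gene, by 1.87 ± 0.34 (edgeR adjusted p = 0.0283 and 0.0395), and MYO3A and EML6 rose by 1.89 ± 0.21 and 1.84 ± 0.31 (edgeR adjusted p = 0.0203 and 0.0416).

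Among the falls, LGI2, a secreted leucine-rich repeat gene, had 61.7, 177, 30.9 and 55.2 CPM on day 5, against 359.8, 631, 66.4 and 197 CPM on day 1 (log2 fold change -1.83 ± 0.23, edgeR adjusted p = 0.0230). CAMK2A, a calcium-dependent kinase gene best known from mature excitatory neurons, had 9.47, 6.16, 10.4 and 10.4 CPM on day 5, against 24.4, 39.3, 20.6 and 44.5 CPM on day 1 (log2 fold change -1.77 ± 0.29, edgeR adjusted p = 0.0371), each day 5 library below each day 1 library. EPAS1, the gene of the hypoxia-inducible factor HIF-2 alpha, had 5.88, 0.864, 29.4 and 0.509 CPM on day 5, against 23.5, 0.964, 131 and 2.67 CPM on day 1 (log2 fold change -1.85 ± 0.32, edgeR adjusted p = 0.0404), with E77 Occipital near 1 CPM on both days. VGLL3, a cofactor gene of TEAD factors, had 8.94, 13.4, 56.04 and 15.3 CPM on day 5, against 20.3, 36.8, 347 and 46.5 CPM on day 1 (log2 fold change -1.73 ± 0.25, edgeR adjusted p = 0.0311), highest in E42 Anterior. The collagen hydroxylase gene P3H2 fell by 1.82 ± 0.27 on the log2 scale (edgeR adjusted p = 0.0343), the taurine transporter gene SLC6A6 by 1.66 ± 0.21 (edgeR adjusted p = 0.0226), the elongation factor gene ELL2 by 1.64 ± 0.34 (edgeR adjusted p = 0.0494) and the fatty acid-binding protein gene FABP3 by 1.73 ± 0.31 (edgeR adjusted p = 0.0388). FAM181A and CHST7, a sulfotransferase gene, fell by 1.77 ± 0.25 and 1.61 ± 0.22 (edgeR adjusted p = 0.0230 and 0.0223), with no overlap between the days. Without E42 Anterior the log2 fold change was 1.97 (adjusted p = 0.0559) for CACNG5, 1.80 (adjusted p = 0.105) for CELF4, 1.85 (adjusted p = 0.0627) for PIK3IP1, 1.89 (adjusted p = 0.114) for EML6, -1.63 (adjusted p = 0.0707) for EPAS1, -1.35 (adjusted p = 0.0644) for ELL2 and -1.36 (adjusted p = 0.0538) for FABP3, and the adjusted p of 12 others was under 0.05.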
